A study of Caenorhabditis elegans with 16 samples.

Results

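RNA from whole *Caenorhabditis elegans* animals that lack the repressor PALS-22 was compared with RNA from animals that lack PALS-22 and carry a loss-of-function change in PALS-25. The comparison used 8 of the 16 libraries of the series, the 4 of single mutants, *pals-22(jy3)*, and the 4 of the double genotype, *pals-22(jy3) pals-25(jy9)*, chosen by the genotype in their labels and not by any measured value. Both groups carry the same *pals-22* allele, *jy3*, which changes a splice acceptor, and only the double mutants carry *jy9*, a missense loss-of-function change in *pals-25*. The libraries of the 2 groups therefore differ in whether PALS-25 is functional when PALS-22 is absent. Each genotype is 1 allele combination in 1 strain, so the comparison is one of strains as well as of alleles. The other libraries, used here only for reference, were 4 of wild-type (WT) animals and 4 of *pals-25(jy111)* mutants, which carry a gain-of-function allele with a premature stop codon in an otherwise wild-type background. Animals were synchronized by bleaching, grown on *E. coli* OP50-1 at 20 °C and collected at the L4 stage, the last larval stage. *pals-22(jy3)* animals were grown for 48 h because they develop slowly, and the other genotypes for 44 h, so effects of genotype and of growth time cannot be told apart in this comparison.

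PALS-22 and PALS-25 belong to a nematode-expanded protein family named for its ALS2CR12 signature, whose biochemical function is not known, and their genes are neighbours transcribed in the same direction. PALS-22 holds back, and PALS-25 promotes, expression of genes of the Intracellular Pathogen Response (IPR), which is induced by microsporidia and the Orsay virus in the intestine, and of the Oomycete Recognition Response (ORR), which is induced by oomycetes that attack the epidermis. A separate branch of defense in the worm intestine runs through the p38 MAP kinase PMK-1 and maintains expression of C-type lectins, lysozymes and other secreted factors against bacteria.

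The 8 libraries held between 21551118 and 34151410 counts assigned to genes. Replicate 1 of *pals-22(jy3)* and replicate 4 of the double mutant stood apart from the rest of their groups, with a standard deviation of log2 deviations from the group mean, across genes, of 0.522 and 0.518, against 0.171 to 0.383 in the other 6 libraries. Yolk, collagen, histone and germline values leaned on these libraries, and some of them are given below also without both. Levels are CPM, the counts of a gene relative to the total of its library, scaled for library composition. A gene was called higher or lower in *pals-22(jy3)* when its log2 fold change over the double mutant passed 2 in size with an adjusted p under 0.05 in edgeR's quasi-likelihood test over 14878 genes. A weaker criterion, an adjusted p under 0.05 at any fold, is named as such.

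The mutated genes themselves were checked first, and neither allele removes the transcript. *pals-22* (chromosome III, 132418 to 134401 in the Ensembl annotation of WBcel235) had 17.4, 23.5, 19.9 and 22.8 CPM in the 4 *pals-22(jy3)* libraries and 5.78, 5.74, 6.63 and 7.31 CPM in the double mutants. *pals-25* (chromosome III, 134494 to 137975) had 8.59, 8.74, 8.48 and 11.1 CPM against 2.93, 3.37, 2.7 and 3.77 CPM. Every *pals-22(jy3)* library lay above every double-mutant library for both genes, a log2 difference of 1.68 for *pals-22* (SE 0.14, edgeR adjusted p = 0.000119) and of 1.49 for *pals-25* (SE 0.16, edgeR adjusted p = 0.000501). Counts per gene do not read the altered bases, so the alleles themselves were not checked. The control gene of qRT-PCR in the study, *snb-1*, moved little. It encodes synaptobrevin and had a log2 fold change of 0.12 (edgeR adjusted p = 0.228), though 4 of 18 alternative fits gave it an adjusted p under 0.05. *skr-1*, a Skp1-related gene, had a log2 fold change of -0.07 (edgeR adjusted p = 0.335).

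With functional PALS-25, 475 genes were called higher and 137 lower, which are 3.19% and 0.921% of the genes tested. The higher genes changed far more than the lower ones. Their median log2 fold change was 4.80, against -2.68 for the lower genes and -0.09 for all genes tested, and 129 of them passed a log2 fold change of 8. At any fold, 1678 genes were higher and 1657 lower, or 11.3% and 11.1% of those tested. In 473 of the 475 called higher, each *pals-22(jy3)* library lay above each double-mutant library, a separation seen in 15.5% of all genes tested. In 133 of the 137 called lower each lay below, against 12% of all genes. The genes were called from these same libraries, so the separation follows largely from the calls and is no further evidence. Without the 2 libraries that stood apart, 547 genes were called higher and 114 lower.

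The 2 sets of called genes differed in where they started from. In the double mutants the genes called higher had a median level of 0.289 CPM, close to the 0.264 CPM of WT animals, and in *pals-22(jy3)* their median was 13.5 CPM. For 55 of them no read was counted in any of the 4 double-mutant libraries, and 48 more had 1 to 3 counts in all. The genes called lower were expressed in the double mutants at a median of 7.95 CPM, with 7.84 CPM in WT, and fell to 0.970 CPM in *pals-22(jy3)*. Against WT, the 475 higher genes had a median log2 fold change of 5.05 in *pals-22(jy3)*, and the 194 of them that could be tested in the double mutants had one of -0.09. For the lower genes the corresponding medians were -2.75, over 115 genes, and 0.24, over all 137. These contrasts share libraries with the main one and are given only side by side.

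**Figure D1:**
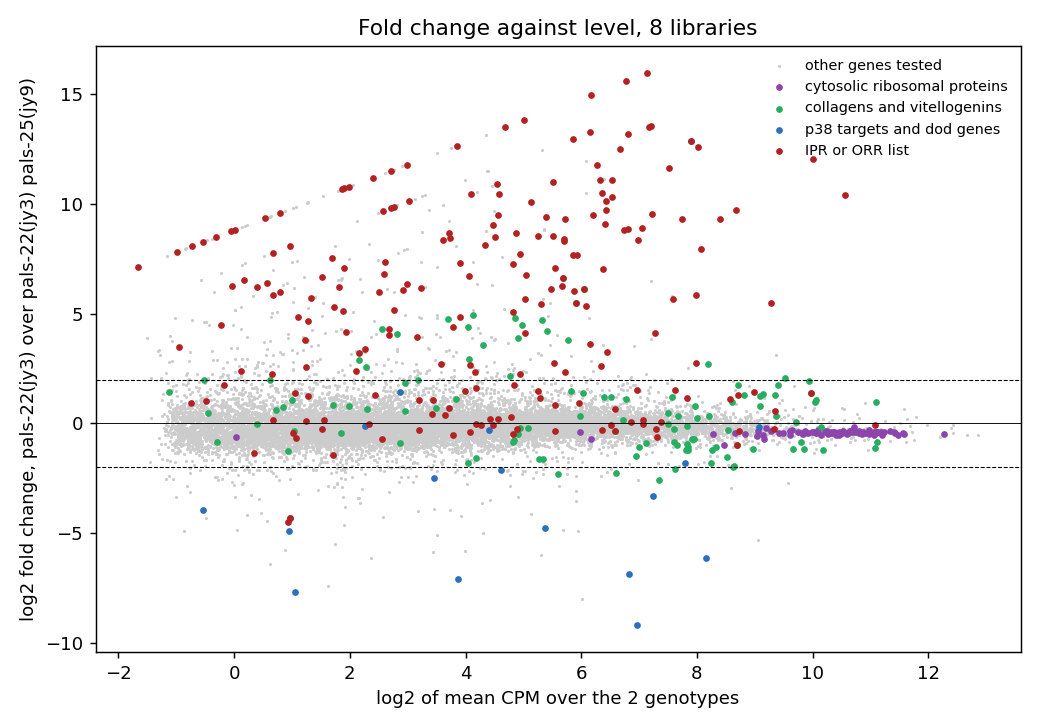
Change in *pals-22(jy3)* relative to the double mutant, in log2 units (vertical axis), against log2 of the mean CPM over both genotypes (horizontal axis), 1 point per gene of the 14878 tested, with dashed lines at the call threshold. IPR and ORR genes (red) reach up to 15.93, p38 targets and *dod* genes (blue) down to -9.16, collagens and vitellogenins (green) lie on both sides of 0 with their larger changes upward, and ribosomal protein genes (purple) sit slightly below 0 at high levels.

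The IPR list holds 80 genes, of which 79 were tested. Of these, 71 were called higher and none lower, 74 were higher at any fold, and the median log2 fold change was 8.84. The count was 71 in every alternative fit run at the same threshold. Summed over the list, IPR transcripts made up 13286 to 20519 CPM in the *pals-22(jy3)* libraries and 370.6 to 526.5 CPM in the double mutants. The 5 members that did not pass at any fold were *clec-86*, a C-type lectin gene, *hsp-17*, a small heat shock gene, and 3 histone gene IDs that share the symbol *his-15*. The ORR list holds 206 genes and 172 were tested, of which 116 were called higher and 2 lower, with a median of 5.78. All 41 tested genes on both lists were called higher, with a median of 9.55, compared with 30 of 38 on the IPR list alone (median 5.97) and 75 of 131 on the ORR list alone (median 3.19). Both lists were drawn up from earlier work on infected or *pals-22* mutant animals, so their direction here is not independent evidence. The genes on neither list made up 329 of the 475 called higher.

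The *pals* genes rose almost as a whole family. Of 36 tested, 34 were higher at any fold and 27 were called, and their median log2 fold change was 8.59. Those that passed at any fold but were not called included *pals-22* and *pals-25* themselves, *pals-17* and *pals-18*, which were named after their values were seen. The largest fitted log2 fold change among the called genes was that of *pals-11* (WBGene00044708). It had 191, 340.1, 267 and 323 CPM in *pals-22(jy3)*, 34311 counts in all, and not a single count in the double mutants, which is at least 9524-fold higher when 3 counts over the group are set as the floor. Its fitted log2 fold change was 15.93 (SE 0.49, edgeR adjusted p = 3.89e-05), a value that depends on the prior count used for genes without reads. *pals-5*, whose promoter drives the standard reporter of the IPR, had 98.4, 172, 128 and 170.1 CPM against 1 count in all 4 double-mutant libraries. *pals-29* had 228, 329, 276 and 315 CPM against 2 counts. For *pals-17* the gap was small, with 15, 27.4, 21.9 and 29 CPM against 10, 14.1, 13.6 and 12.1 CPM (log2 fold change 0.86, SE 0.22, edgeR adjusted p = 0.0265), and 7 of its 18 alternatives lost it.

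The most abundant of the called transcripts came from a locus of uncharacterized genes on chromosome V. *ddn-1* reached 3024 ± 223 CPM (SD, n = 4) in *pals-22(jy3)* from 2.2 ± 0.784 CPM in the double mutant, and its neighbor *B0507.8* reached 2060.3 ± 225 CPM from 0.486 ± 0.17 CPM. *eol-1*, which encodes a decapping exonuclease-like protein, had 627, 928, 781 and 915 CPM against 0.898, 1.11, 0.957 and 0.8 CPM. The 4 libraries of each genotype were close to each other for *eol-1* and far from the other group (log2 change 9.71, SE 0.21, edgeR adjusted p = 1.44e-07). *F26F2.1* had 257, 419, 450.0 and 579.8 CPM against 0.547, 0.723, 0.581 and 0.762 CPM, and *F57G4.11* had 172, 392, 279.7 and 339 CPM against 2 counts, a ratio of 14907 with an exact 95% counting interval from 4126 to 123097.

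A part of the chitinase-like *chil* genes, which alter the cuticle against oomycetes, rose from near 0 to low levels. Of 19 tested, 10 were called higher, 11 were higher at any fold and 7 did not pass. Another, *chil-22*, was lower at any fold (log2 fold change -0.82, edgeR adjusted p = 0.0436), a call that 13 of its 18 alternatives lost. Summed over the list, the libraries had 133 to 196 CPM in *pals-22(jy3)* and 48.8 to 56.9 CPM in the double mutants. *chil-27*, the reporter gene of the ORR, had 10.1, 5.7, 9.76 and 4.4 CPM in *pals-22(jy3)* and no count in the double mutants, at least 255-fold higher. All 4 *pals-22(jy3)* libraries thus carried *chil-27* reads, though at levels far below those of the most abundant *pals* transcripts.

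Genes of ubiquitin ligases formed the other large group. Cullin-RING ligases consist of a cullin scaffold, a RING protein, a Skp1-related adaptor and an F-box or BTB protein that binds the substrate. Of 6 cullin genes *cul-6* alone passed at any fold, with 38.3, 59.5, 48.8 and 57 CPM against 8.52, 11.8, 11.6 and 9.37 CPM (log2 fold change 2.26, SE 0.18, edgeR adjusted p = 9.61e-05), and across the alternatives 1 to 3 cullin genes were higher. Among 11 Skp1-related genes *skr-4* and *skr-5* were called higher, with log2 fold changes of 4.11 and 5.17. The RING gene *rcs-1* rose from 61.3 ± 8.15 to 245 ± 30.5 CPM (SD, n = 4), just under the call threshold at 1.96 (edgeR adjusted p = 3.94e-05), and *skr-3* from 99.5 ± 12.7 to 294 ± 52.2 CPM at 1.52 (edgeR adjusted p = 0.000356).

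Of 122 F-box genes of the *fbxa* family tested, 33 were called higher, none was called lower, and 59 were higher at any fold. Their median log2 fold change was 0.76, so the family held a strongly raised part beside many members that moved little. *fbxa-75* had 154, 268, 229 and 225 CPM in *pals-22(jy3)* and no count in the double mutants, at least 7433-fold higher, and *fbxa-158* had 48.9, 73.2, 58.4 and 65.5 CPM against 0.156, 0.193, 0.205 and 0.571 CPM. Of 55 *math* and *bath* genes, which encode MATH-domain proteins, in part with a BTB domain, 19 were called higher and none lower, with a median of 0.27. *math-5* had 28.8, 67.6, 48.8 and 61.4 CPM and no count in the double mutants. The *fbxb* and *fbxc* families added 2 called members of 20 tested. None of 31 proteasome subunit genes was called, and *pbs-1* alone passed at any fold, with a log2 fold change of 0.35. That count depended on the processing and on the libraries used, with between 1 and 27 proteasome genes higher at any fold across the alternatives. It was 1 to 17 with each library left out in turn and 19 without the 2 libraries that stood apart.

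Argonaute proteins and other factors of RNA interference bind or amplify small RNAs that silence genes and viruses. Of 19 Argonaute genes, 3 were called higher, and 7 were higher at any fold. *vsra-1* had 1084, 1312, 1147 and 1353 CPM against 25.9, 27, 27.4 and 24.8 CPM, with narrow spread in both groups (log2 fold change 5.50, SE 0.11, edgeR adjusted p = 1.44e-07). *ppw-1* had 867, 1419, 1141 and 1299 CPM against 132, 129.9, 136 and 133 CPM, and *sago-2* had a log2 fold change of 2.77. All 3 lay well above their double-mutant range in each library, from a starting level that was already measurable, unlike the *pals* genes. Of 24 core RNAi genes, the RNA-dependent RNA polymerase gene *rrf-2* was the only one called, at 5.80 (SE 0.17, edgeR adjusted p = 5.62e-07), and 7 were higher and 2 lower at any fold. *drh-1*, encoding the RIG-I-like sensor of viral RNA, rose from 42.1 ± 0.371 to 123 ± 8.91 CPM (SD, n = 4), and *rde-1*, the Argonaute that takes up primary small RNAs, from 51.6 ± 3.22 to 155 ± 12.3 CPM.

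Transcription factor genes of the bZIP class rose in part. *zip-1*, which is required for a subset of IPR genes, had 129.7, 140.3, 125 and 161 CPM against 19.2, 21.7, 24.3 and 24.4 CPM (log2 fold change 2.59, SE 0.12, edgeR adjusted p = 4.26e-06). *zip-6* and *zip-10* were also called, from lower levels, and 6 of 23 bZIP genes were higher at any fold against 1 lower. Of 187 nuclear hormone receptor genes tested, 34 were higher and 6 lower at any fold, or 18.2% and 3.21%, beside 11.3% and 11.1% of all genes. Only 2 were called in each direction, where 3.19% of all genes were called higher and 0.921% lower. Without the 2 libraries that stood apart, 84 receptor genes were higher at any fold.

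**Figure D2:**
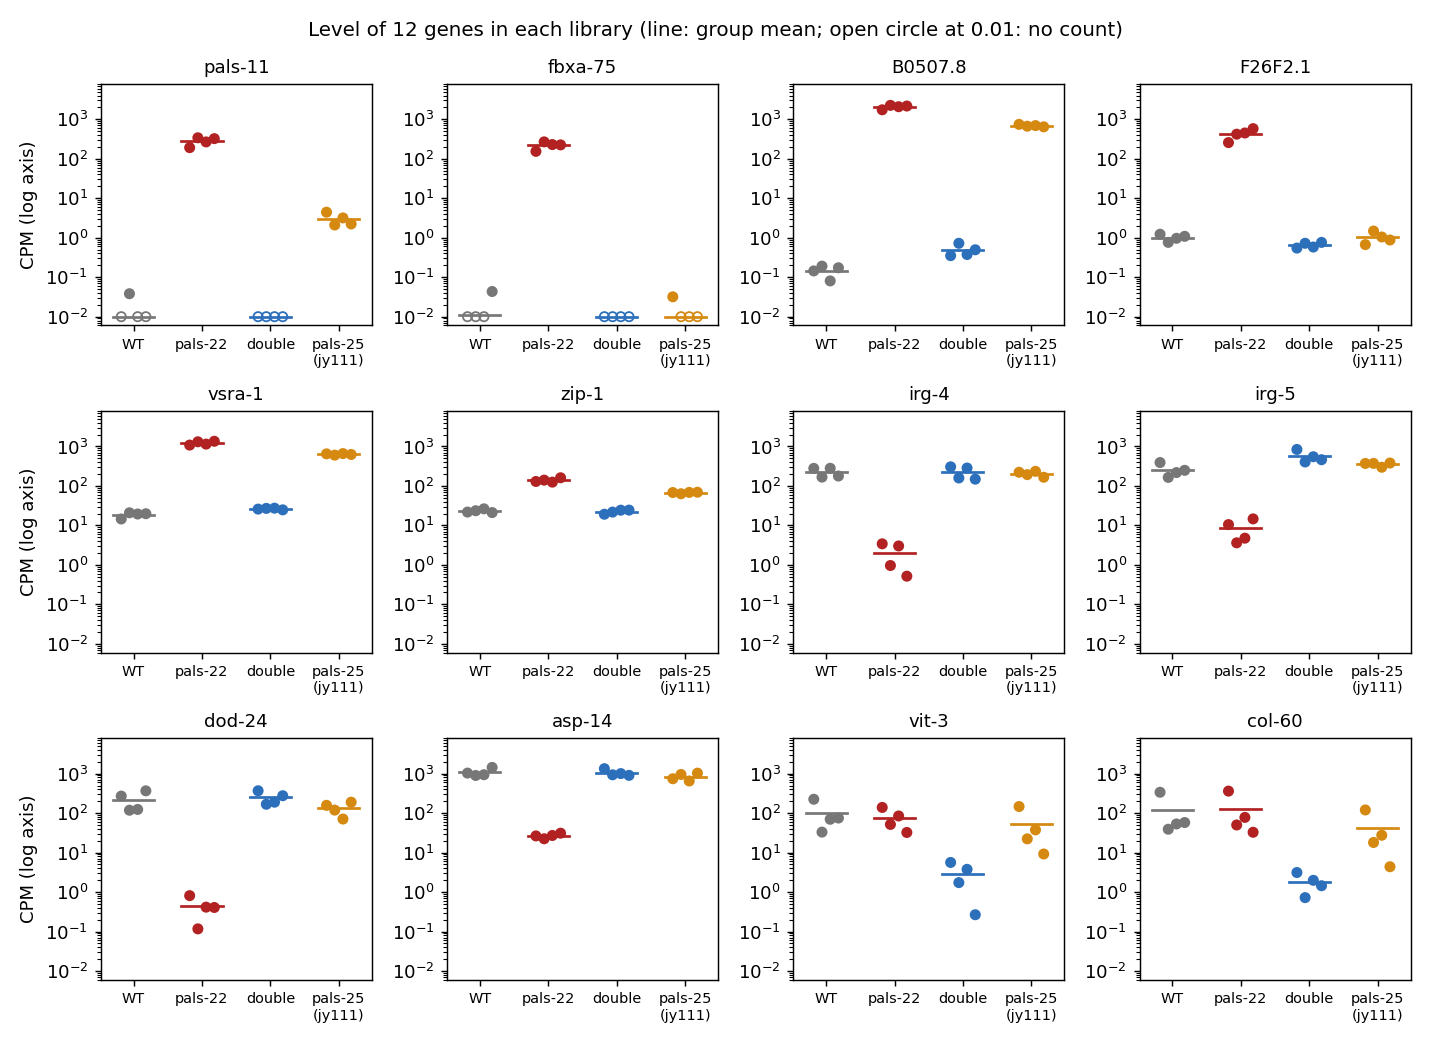
CPM on a log axis for 12 genes in each of the 16 libraries, grouped by genotype, with a line at each group mean and open circles for libraries without a count. For *pals-11*, *fbxa-75*, *B0507.8* and *F26F2.1* the *pals-22(jy3)* points lie above those of the double mutant, and for *irg-4*, *irg-5*, *dod-24* and *asp-14* below, without overlap in any of the 12.

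The genes that fell with functional PALS-25 included targets of the p38 MAP kinase pathway. All 9 listed targets were lower in *pals-22(jy3)* at any fold, and 8 were called lower, with a median log2 fold change of -3.94. All 9 stayed lower in each alternative fit, also without the 2 libraries that stood apart. *irg-4*, an intestinal gene induced by bacterial infection, had 3.41, 0.964, 3.02 and 0.518 CPM against 305, 159, 284 and 148 CPM (log2 fold change -6.85, SE 0.66, edgeR adjusted p = 0.000253). *irg-5* had 10.5, 3.62, 4.75 and 14.6 CPM against 839.7, 404, 549 and 461 CPM (log2 fold change -6.11, SE 0.55, edgeR adjusted p = 0.000174). The lowest double-mutant library stood far above the highest *pals-22(jy3)* library for both genes. *sysm-1* was left with 2 counts in the 4 *pals-22(jy3)* libraries, against 433 in the double mutants. *lys-2*, a lysozyme gene, fell from 276 ± 15.8 to 28.6 ± 7.22 CPM (SD, n = 4). The member that was not called, *C17H12.8*, fell by less, from 343 ± 38.6 to 101 ± 41 CPM.

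Genes of the p38 pathway itself moved little. Of 7 tested, *vhp-1*, which encodes a phosphatase acting on MAP kinases, was higher (0.49, edgeR adjusted p = 0.00361) and *nsy-1*, which encodes an upstream kinase, was lower (-0.37, edgeR adjusted p = 0.0207). The call for *nsy-1* was lost in 9 of its 18 alternatives. The kinase gene *pmk-1* was among the 5 that did not pass at any fold.

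The lower genes also included *dod* genes, named for regulation by the insulin pathway, of which 5 of 10 were called lower and 1, *dod-23*, higher. *dod-24* had 0.812, 0.117, 0.415 and 0.407 CPM against 368, 168, 189 and 275 CPM, the largest fall of all called genes (log2 fold change -9.16, SE 0.54, edgeR adjusted p = 1.62e-05). In the other direction *dod-23* had 352, 649, 454 and 442 CPM against 0.0781, 0.0482, 0.103 and 0 CPM. These members of 1 list moved in opposite directions, without overlap between the genotypes for either.

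C-type lectin genes were split in the same way, and a part of the proteases was lower. Of 108 *clec* genes tested, 18 were called lower and 10 higher, where 0.921% of all genes were called lower and 3.19% higher. At any fold 29 were lower and 14 higher, or 26.9% and 13%, beside 11.1% and 11.3% of all genes. *clec-3*, *clec-4* and *clec-174* fell most, with log2 fold changes of -5.85, -5.07 and -6.42, while *clec-60* rose from 3.16 ± 0.946 to 132 ± 48.8 CPM (SD, n = 4). Of 19 cathepsin and aspartic protease genes, *asp-14*, *asp-12* and *asp-8* were called lower and 5 were lower at any fold, *asp-4* was higher (1.14, edgeR adjusted p = 0.000311), and 13 did not pass. *asp-14* had 26.4, 22.4, 27.1 and 31 CPM in *pals-22(jy3)* and 1333, 933, 1002 and 904 CPM in the double mutants, with little spread in either group (log2 fold change -5.32, SE 0.17, edgeR adjusted p = 8.15e-07). Other abundant transcripts that fell were *ilys-5*, an invertebrate-type lysozyme gene, from 1316 ± 372 to 209 ± 59.8 CPM, and *argk-1*, an arginine kinase gene, from 678 ± 228 to 92.3 ± 66.5 CPM. Because whole animals were sequenced, fewer cells of a type and less RNA per cell cannot be told apart.

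Detoxification and lipid genes changed in both directions, in shares that were in part close to those of all genes. Of 59 UDP-glucuronosyltransferase (*ugt*) genes, 15 were lower and 8 higher at any fold, or 25.4% and 13.6%, beside 11.1% and 11.3% of all genes. Of 54 cytochrome P450 genes 5 were lower and 3 higher, or 9.26% and 5.56%, both below the shares of all genes. Called lower were *cyp-14A2*, *cyp-35B1* and *cyp-25A1*, at -3.38, -2.85 and -2.89, and called higher *cyp-13A5* and *cyp-13A1*, at 2.43 and 2.21. Of 14 tested transporter genes of the *pgp* family, *pgp-1* was called higher and *pgp-5*, *pgp-6*, *pgp-7* and *pgp-12* lower, a family looked at after its values were seen. Among 21 genes of fatty acid desaturation and oxidation, 2 were called higher and 1 lower, with log2 fold changes from -2.79 to 4.18 over the list. At any fold 6 were lower and 3 higher, or 28.6% and 14.3%. Among those called higher was *fat-5*, rising from 4.55 ± 0.756 to 29.3 ± 5.46 CPM (SD, n = 4), while *fat-7* was lower at any fold, falling from 174 ± 38 to 86.5 ± 13.5 CPM. For *fat-5* the double mutants stood below WT (25.1 CPM) and *pals-22(jy3)* near it.

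Housekeeping groups of translation and protein folding moved by small amounts. Of 79 cytosolic ribosomal protein genes, 74 were lower in *pals-22(jy3)* at any fold, none was called, and the median log2 fold change was -0.42, against -0.09 for all genes. The number lower ranged from 53 to 75 across the alternatives, and the median against WT was -0.39 in *pals-22(jy3)* and 0.03 in the double mutants. *rpl-29* had 477, 413, 421 and 406 CPM against 633, 646, 582 and 610.5 CPM. Of 14 endoplasmic reticulum chaperone and stress genes, 8 were lower, such as *crt-1* (calreticulin) at -0.83 and *enpl-1* at -0.75, and *pek-1* was higher at 0.51. Here the double mutants stood above WT, with a median of 0.32 over the 8 lower genes, and *pals-22(jy3)* below it, with -0.38.

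**Figure D3:**
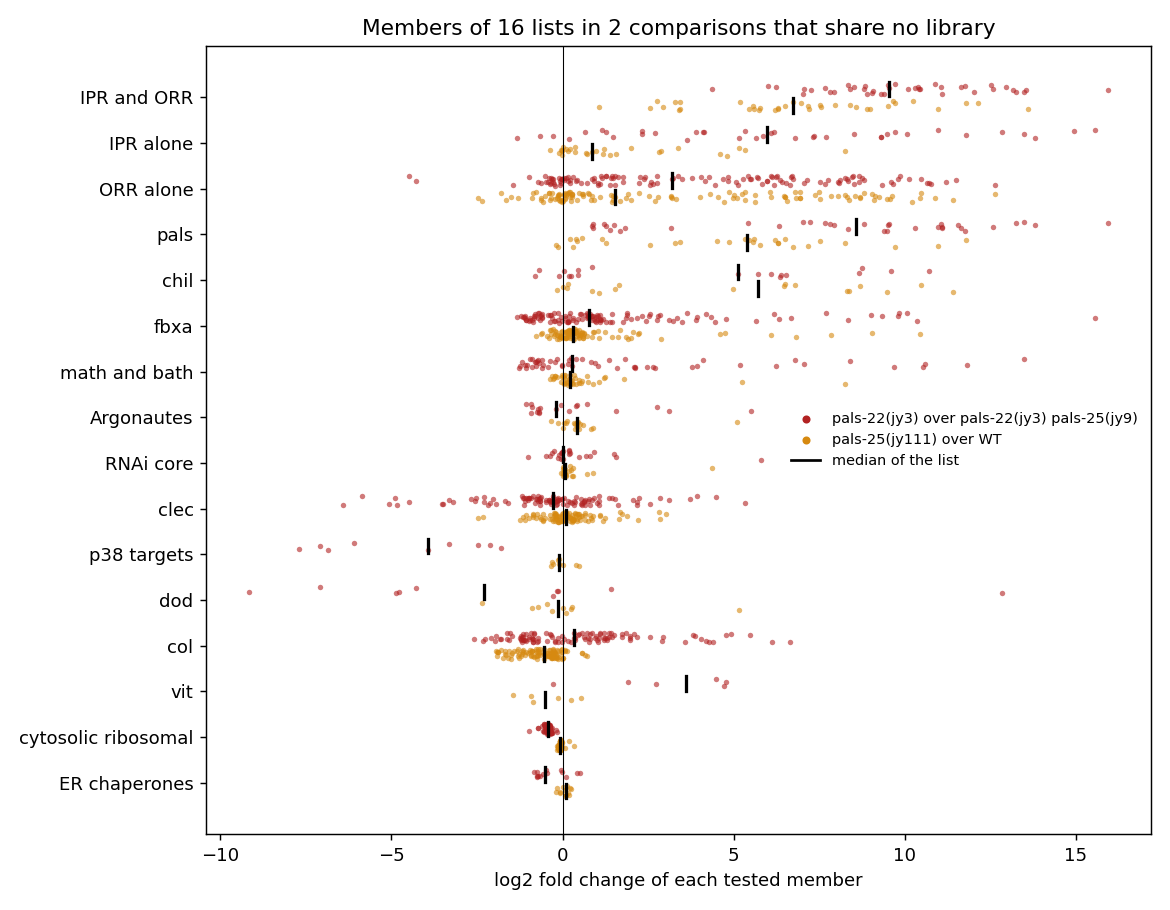
Log2 fold change (horizontal axis) of each tested member of 16 gene lists, with a bar at each median, in *pals-22(jy3)* relative to the double mutant (red) and, for members tested in both comparisons, in *pals-25(jy111)* relative to WT (orange). The medians of the *pals* list are 8.59 and 5.38, those of the p38 targets -3.94 and -0.11.

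For yolk, collagen and histone genes the levels in WT are given beside those of both mutants. Of 6 vitellogenin genes, which encode yolk proteins made in the adult intestine, *vit-3*, *vit-4* and *vit-5* were called higher, as was *vit-2*. In 5 of 18 alternatives *vit-2* did not reach an adjusted p under 0.05. Without the 2 libraries that stood apart it was at 2.60 (edgeR adjusted p = 0.0117), and 5 of the 6 genes were higher at any fold. The other yolk values here are from all libraries. *vit-3* had 139, 51.7, 84.6 and 32.3 CPM in *pals-22(jy3)* and 5.62, 1.74, 3.76 and 0.267 CPM in the double mutants, with 224, 33, 69.7 and 75 CPM in WT. The 4 called genes had a median log2 fold change against WT of 0.12 in *pals-22(jy3)* and -4.61 in the double mutants. Summed over all 6 genes the order was another, with 1852 to 3470 CPM in *pals-22(jy3)*, above each WT library at 841 to 1492 CPM, and 74.2 to 1132 CPM in the double mutants, which overlapped with WT. Of 109 *col* genes for cuticle collagens, 15 were called higher and 1, *col-80*, lower. *col-60* had 360.4, 50.1, 77.8 and 32.7 CPM against 3.12, 0.723, 1.98 and 1.45 CPM, and *col-88* had 291, 33.5, 58.1 and 23.3 CPM against 1.6, 0.53, 1.3 and 0.457 CPM. Replicate 1 of *pals-22(jy3)* was by far the highest for both, and without the 2 libraries that stood apart the log2 fold changes were 4.81 and 5.08, in place of 6.11 and 6.64. The 21 collagen genes higher at any fold had a median against WT of -0.00 in *pals-22(jy3)* and -3.27 in the double mutants. Their number ranged from 9 to 38 across the alternatives, with 38 without those 2 libraries. Their median level was also below WT in *pals-25(jy111)*, at 15.7 CPM beside 52.9 CPM, with 2.54 CPM in the double mutants. No *col* gene passed at any fold in *pals-25(jy111)* against WT. The WT libraries were uneven, with summed *col* levels of 50025 CPM in replicate 1 and 28183 to 36177 CPM in the others. Of 63 histone genes, 21 were higher at any fold and 3 lower, and for the higher ones both genotypes lay below WT, with medians of -0.60 in *pals-22(jy3)* and -1.95 in the double mutants. Their number ranged from 7 to 34, with 34 without those 2 libraries.

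Markers of stage and tissue were read beside these groups. *col-19*, a collagen gene of the adult epidermis, had 34.1, 1.75, 7.24 and 1.89 CPM in *pals-22(jy3)* and 0.312, 0.337, 0.205 and 1.37 CPM in the double mutants, and was the only adult marker of 3 with enough counts to be tested (4.29, SE 1.18, edgeR adjusted p = 0.0349). In 6 of 18 alternatives *col-19* did not reach an adjusted p under 0.05. Without the 2 libraries that stood apart it was at 3.72 (edgeR adjusted p = 0.00944). Summed over 8 germline markers, all above 0 in each library, *pals-22(jy3)* libraries had 224.2 to 827.5 CPM and double-mutant libraries 663.5 to 1059 CPM, and 3 markers, *htp-3*, *him-3* and *glp-1*, were lower at any fold. Summed sperm markers ranged from 36.2 to 188.7 CPM and from 119.9 to 179.3 CPM, and none of the 7 passed, nor did any of 29 major sperm protein genes. Without the 2 libraries that stood apart, all 8 germline markers, all 7 sperm markers and 28 of 29 major sperm protein genes were lower in *pals-22(jy3)*. In each genotype replicate 1 had the highest summed sperm marker and major sperm protein levels, and this setting dropped it from *pals-22(jy3)* only. The lower sperm counts therefore cannot be told apart from that uneven removal. With the replicate number as a block, 3 germline markers, 0 sperm markers and 6 major sperm protein genes were lower. The part of germline content and larval stage in the yolk, collagen and histone values was not tested.

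The remaining tissue markers were present throughout, and most did not pass. Summed intestinal markers ranged from 3316 to 5693 CPM in *pals-22(jy3)* and from 4519.7 to 6173 CPM in the double mutants. The 7 intestinal markers had a median log2 fold change of -0.17, with 4 of them below 0. Of these 7, *elt-2*, the GATA factor of intestinal identity, was higher (1.29, edgeR adjusted p = 0.00186), as was *elt-7*. Of 4 pharynx markers tested, with a median of -1.01, the myosin gene *myo-1* (-1.08, edgeR adjusted p = 0.0406) and the troponin gene *tnc-2* (-1.01, edgeR adjusted p = 0.0366) were lower and *pha-4*, the FoxA factor of pharynx identity, was higher (0.92, edgeR adjusted p = 0.000143). The calls of *myo-1* and *tnc-2* were lost in 8 and 10 of 18 alternatives. At any fold, none of 8 epidermal markers was higher and 1 was lower (12.5%). Lower were 2 of 6 body wall muscle markers (33.3%), and higher were 2 of 10 neuronal markers (20%). Among all genes 11.3% were higher and 11.1% lower. Across the alternatives, 0 to 4 muscle markers were lower and 0 to 5 neuronal markers higher.

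Called genes lay next to each other along the chromosomes. Of the 475 called higher, 291 (61.3%) had another gene called higher within 10 kb, against 8.27% of all genes tested with a position, and of the 137 called lower 44 (32.1%) had another called lower, against 2.72%. These are descriptions, since families of copied genes are themselves clustered and reads that match several copies may have been shared between them. Chromosome V held 176 of the higher genes, 5.93% of its genes tested, and chromosome II held 124, or 4.85%.

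The longest run lay on chromosome I from 13083321 to 13144623, where 16 of 17 tested genes, among them *pals-2* to *pals-15*, were called higher. Their median level rose from 0.00977 CPM in the double mutants to 77.5 CPM in *pals-22(jy3)*, with 0.0239 CPM in WT. On chromosome V from 8723370 to 8766038, 15 of 16 genes around *ddn-1* and *B0507.8* were called, with medians of 0.199 and 32.9 CPM. A run of 11 of 13 genes on chromosome II, from 1597906 to 1634121, held *fbxa-158*, *fbxa-163* to *fbxa-166* and *C08E3.1*, with medians of 0.339 and 41.7 CPM. All 8 tested genes of a *math* cluster (chromosome II, 1866381 to 1889171) and all 8 of a *chil* cluster (chromosome II, 9843258 to 9871172) were called as well.

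Runs of lower genes were shorter. On chromosome IV from 12962808 to 12978343, all 5 tested genes, *F55G11.8*, *dod-22*, *F55G11.2*, *F55G11.4* and *dod-17*, were called lower, with a median of 1.67 CPM in *pals-22(jy3)*, 31.1 CPM in the double mutants and 36.5 CPM in WT. *F55G11.2* had 0.728, 0.205, 1.06 and 0.259 CPM against 34.9, 22.8, 25.3 and 41.4 CPM. A neighboring stretch from 12910647 to 12923296 held *irg-6*, *K08D8.5* and 2 further genes, all called lower, and *dod-21* and *dod-24* lay between these runs. A run of 5 genes on chromosome II, from 1004616 to 1023528, had medians of 0.155 CPM in *pals-22(jy3)* and 2.59 CPM in the double mutants.

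The same genes were then read in *pals-25(jy111)* animals, in which PALS-25 is active while PALS-22 is present, against WT. These 8 libraries were all grown for 44 h and share none with the main comparison. In that comparison 171 of 14671 genes were called higher (1.17%) and 12 lower (0.0818%). Of the 475 genes called higher in *pals-22(jy3)*, 331 had enough counts to be tested and 162 were also called higher, which is 34.1% of the 475 and 94.7% of the 171. At any fold 198 of the 331 were higher and none lower in *pals-25(jy111)*, beside 2.33% higher and 1.41% lower among all genes tested there. The median log2 fold change over the 331 was 1.86, beside 4.10 for the same genes in the main comparison. Of the 137 called lower, 122 were tested and 6 were also called lower, 4.38% of the 137 and 50% of the 12, and the median was -0.26. Their median level was 6.74 CPM in *pals-25(jy111)* and 7.84 CPM in WT.

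Whether the change differed between the 2 comparisons was tested as a difference of differences in 1 edgeR fit over all 16 libraries, a test added after the data were seen. Over 14450 genes, 10.5% had a larger and 7.4% a smaller change in *pals-22(jy3)* over the double mutant at an adjusted p under 0.05. Of the 331 genes called higher, 196 had the larger change there and 1 the smaller. Of the 122 called lower, 100 fell more there and none less. These genes were called for a large change in that same comparison, so their selection favors a larger change there. The counts are therefore not separate evidence of a difference. Growth time differs within only 1 of the 2 comparisons, so it cannot be told apart from genotype in this difference either.

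Some genes had similar changes in both comparisons, and others changed far more in 1 of them. *B0507.8* reached 687 ± 42.5 CPM (SD, n = 4) in *pals-25(jy111)* from 0.147 ± 0.0485 CPM in WT, a log2 fold change of 12.14 (edgeR adjusted p = 1.36e-08) beside 12.02 in the main comparison. *vsra-1*, at 5.09, and *eol-1*, at 9.53, were similar. *chil-27* had more reads in *pals-25(jy111)*, with 32, 19.9, 30.2 and 13.3 CPM, than in *pals-22(jy3)*. Over the 18 *chil* genes tested in both comparisons the median was 5.72, beside 5.42 in the main one, and over the 19 tested in each it was 4.98 beside 5.14.

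By contrast, *F26F2.1* had 0.67, 1.48, 1.05 and 0.876 CPM in *pals-25(jy111)* and 1.23, 0.763, 0.967 and 1.08 CPM in WT, ranges that overlapped. Its difference of differences was 9.33 (SE 0.42, edgeR adjusted p = 3.47e-08). *fbxa-75* had 1 library of 4 with any read in *pals-25(jy111)*, at 0.0319 CPM, and was not tested there. The F-box run on chromosome II had a median of 0.323 CPM in *pals-25(jy111)*, and 1 of its 5 genes tested there was called. The *pals* run on chromosome I stood between these cases, with 2.05 CPM in *pals-25(jy111)* and all 9 of its genes tested there called, among them *pals-11* at 2.99 CPM. *ppw-1* (0.83, edgeR adjusted p = 0.00149) and *zip-1* (1.54, edgeR adjusted p = 9.07e-06) rose in *pals-25(jy111)*, beside 3.12 and 2.59 in the main comparison, and the difference of differences was 2.33 (edgeR adjusted p = 2.56e-06) and 1.09 (edgeR adjusted p = 0.000122).

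None of the 9 p38 targets passed at any fold in *pals-25(jy111)*, and their median log2 fold change was -0.11. *irg-4* had 222, 193, 234 and 166 CPM there and 278, 167, 280.0 and 178 CPM in WT, and *asp-14* had 843 CPM beside 1076 CPM. The difference of differences was lower at any fold for all 9 targets. None of the ribosomal genes passed in *pals-25(jy111)* either (median -0.07). The run of 5 lower genes on chromosome II was an exception, since 4 of its 5 genes were also called lower in *pals-25(jy111)*.

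**Figure D4:**
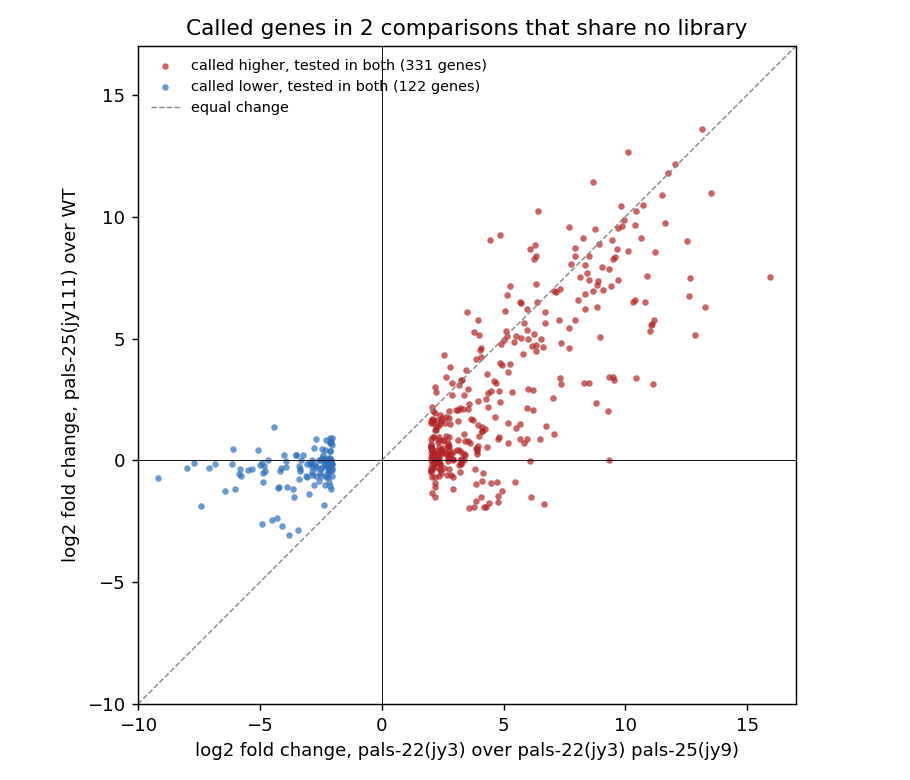
Change in log2 units of *pals-25(jy111)* relative to WT (vertical axis) against that of *pals-22(jy3)* relative to the double mutant (horizontal axis) for called genes tested in both, with a dashed line of equal change. The 331 higher genes spread from -1.94 to 13.60 on the vertical axis, with 56 below 0 and 46 above the line, and most of the 122 lower genes lie close to 0, with a median of -0.26.

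**Figure D5:**
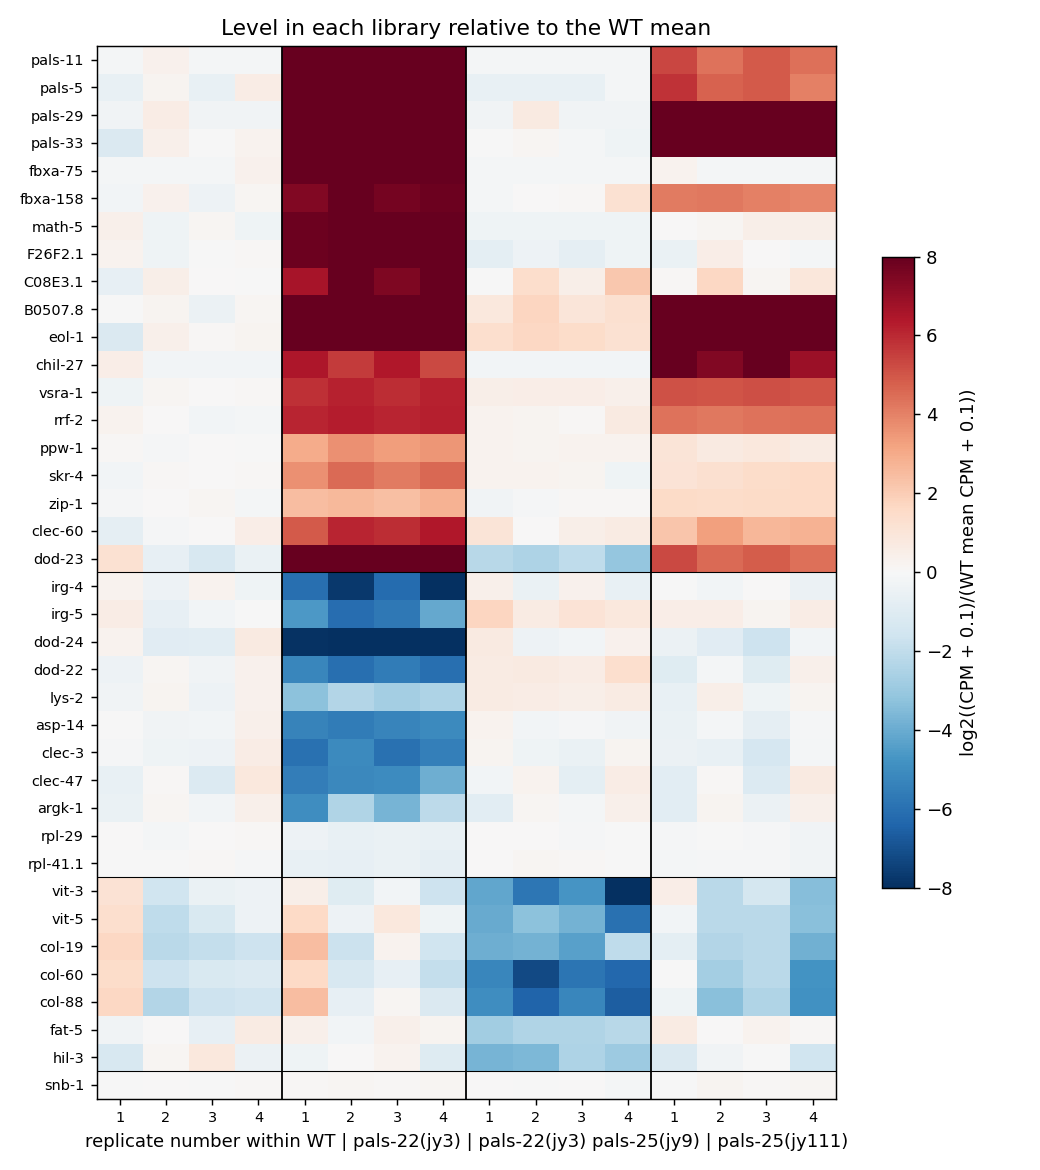
Level of 38 genes (rows) in each of 16 libraries (columns, by genotype and replicate), as log2 of CPM relative to the WT mean after adding 0.1 to both, red above and blue below, with values beyond 8 in size drawn at 8. Genes such as *pals-11* and *fbxa-75* are red in *pals-22(jy3)* alone or also in *pals-25(jy111)*, p38 targets are blue in *pals-22(jy3)* alone, and *vit-3* and *col-60* are blue in the double mutant.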

How the data were processed

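Libraries were prepared by the sequencing core with a stranded mRNA kit and sequenced as paired-end reads. The authors aligned reads to WS235 with Rsubread and deposited raw counts per gene from featureCounts, without normalization. The sources used here state no versions, no strand setting and no rule for reads that fit several genes. Counts of near-identical or overlapping genes (neighboring *pals*, *fbxa*, *math* and histone genes, for example) are therefore uncertain. The table holds 46904 gene IDs, of which 44017 were named from a gene name table. Positions are those of the Ensembl annotation of WBcel235.

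Genes that reached 0.5 CPM in 4 or more of the 8 libraries were fitted in edgeR 4.0.16 (R 4.3.3, quasi-likelihood test, TMM scaling), with Benjamini-Hochberg adjustment over all of them. The level of 0.5 CPM and the threshold of 2 follow the study's methods, and the number of libraries was chosen here. limma 3.58.1 (voom) and DESeq2 1.42.0 were alternatives, as were other scalings and filters, 1 fit over 16 libraries, the replicate number as a block, a log2 threshold of 1, thinning, and leaving out each library. Intervals are exact at 95% and, like the floor of 3 counts, cover counting error only. The replicates are labelled as biological, but the sources used here do not say what was separate, so p-values measure the spread between these libraries. No sequences are shown.

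The gene lists and tests were chosen with earlier results of these data known, and no list was tested as a set. Named genes are the mutated genes, genes with qRT-PCR primers in the study, *zip-1* and ubiquitin ligase genes, the 10 called genes with the largest change and the 5 with the highest mean CPM in each direction, and up to 3 members of each list in each direction. Other genes named in the text, among them *pals-17*, *pals-18*, *vit-2*, *dod-17*, the remaining p38 targets and genes of the positional runs, the *pgp* family, and members that did not pass, were chosen after their values were seen.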

Additional observations from a re-analysis of the deposited data

Results flagged for a closer look

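Within each group of 4 libraries, a named gene was singled out when 1 library lay so far from the other 3 that its gap to the nearest of them passed the Dixon critical value at 95%. This held for 23 of 288 groups, and chance alone singles out about 1 group in 20. No explanation was tested for any of them.

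In replicate 1 of *pals-22(jy3)*, the library that also stood apart across genes, 3 collagen genes were far above the other replicates. *col-19* was at 34.1 CPM against 1.75 to 7.24, *col-60* at 360.4 against 32.7 to 77.8, and *col-88* at 291 against 23.3 to 58.1. *chil-9* was at 6.30 CPM in that library against 2.41 to 2.63, and *sdz-24* was low there, at 21.8 against 41.5 to 42.9. *sysm-1* was at 0.0560 CPM there, and at 0 in the other 3 libraries. In replicate 2, *vit-2* was at 854 CPM against 350 to 426, and in replicate 4 *pals-25* was at 11.1 CPM against 8.48 to 8.74.

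In replicate 4 of the double mutants, the other library that stood apart, *col-19* was high at 1.37 CPM against 0.205 to 0.337. *dod-22* was at 39.8 CPM against 24.4 to 26.8, and *fbxa-158* at 0.571 CPM against 0.156 to 0.205. *fat-6* was low there at 392 CPM against 609 to 649.6, as were *gst-4* at 13.2 CPM against 26.9 to 29.6 and WBGene00019208 at 2.36 CPM against 12 to 14. In replicate 3, *skr-1* was at 184 CPM against 189.7 to 190.9, and *nhr-118* at 0.205 CPM against 0.0381 to 0.0482.

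The others are single reads or pairs of reads beside 3 double-mutant libraries at 0. They are *pals-5* at 0.0381 CPM in replicate 4, *pals-29* at 0.0964 CPM in replicate 2, and *fbxa-7* and *pals-15* at 0.0391 CPM each in replicate 1. In replicate 3 they are *C53A5.9* at 0.0684 CPM, *F57G4.11* at 0.0684 CPM and *F15H10.10* at 0.0342 CPM.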

How the results depend on the processing

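Through 18 alternative settings, 144 genes were followed. Direction did not reverse for any of those with an adjusted p under 0.05 in the main fit. The others, such as *snb-1* and *skr-1*, were not checked for a change of direction. Of 2592 gene and setting pairs, 2486 kept their side of the threshold, 102 lost the call and 4 gained it. Of the 475 genes called higher, 447 to 475 were called again in each alternative at the same threshold, and of the 137 called lower, 94 to 137, with the fewest lower genes when both libraries that stood apart were left out. Counts at any fold moved more. Genes higher numbered 2710 with DESeq2, and scaling by library totals only gave 2542 higher and 1006 lower in place of 1678 and 1657, which moves the split toward higher genes. That scaling moved the median log2 fold change of all genes from -0.09 to 0.04. Without a filter 1010 genes were lower. At a log2 threshold of 1, 838 genes were called higher, 435 lower, and 16 lower in both comparisons in place of 6. With each library left out in turn, there were 1187 to 2565 genes higher and 762 to 2568 lower at any fold, and both highest counts came without *pals-22(jy3)* replicate 1. The lowest number of lower genes, 762, came without *pals-22(jy3)* replicate 2. Without replicates 3 or 4 of *pals-22(jy3)*, or replicate 2 of the double mutants, 778, 955 and 967 were lower. Called lower in both comparisons were 3 to 6 genes, with 3 when *pals-25(jy111)* replicate 2 or replicate 3 was left out. An alternative added after the data were seen, without both libraries that stood apart, gave 3069 higher and 3085 lower at any fold. The cause was not tested.

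The replicate number as a block gave 475 genes called higher and 136 lower. Correlations of deviations between same-numbered libraries were 0.41, 0.48, 0.28 and 0.05, and 2 of the 4 *pals-22(jy3)* libraries correlated best with another number, so the numbers were not taken as pairs. The limits of the data are the 4 h difference in growth, bulk RNA of whole animals, and 4 libraries per group, with fits of low genes resting on few counts. With limma-voom *col-19*, *col-88* and *BE0003N10.6* did not reach an adjusted p under 0.05. *BE0003N10.6* had 136, 125, 256 and 1.03 CPM in the double mutants.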
